A study of Mus musculus with 4 samples.

Results

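The nuclear genes of oxidative phosphorylation were followed through single-cell libraries of mouse hindlimb tissue taken 7 days after a burn and a cut Achilles tendon. The 88 members were all genes whose symbol begins with Ndufa, Ndufb, Ndufc, Ndufs, Ndufv, Sdha, Sdhb, Sdhc, Sdhd, Uqcr, Cox4i, Cox5, Cox6, Cox7, Cox8 or Atp5, without pseudogene symbols, the 7 Ndufaf genes and Ndufa4l2, out of 27998 genes counted. They comprised 36 genes of complex I, 4 of complex II, 8 of complex III, 19 of complex IV (Ndufa4 is placed there, where its protein is now assigned) and 15 of complex V. Another 6 genes match the symbols but encode no subunit: the complex II assembly factors Sdhaf1, Sdhaf2, Sdhaf3 and Sdhaf4, and Atp5s and Atp5sl. In the kept cells 86 members had at least 20 UMIs (unique molecular identifiers, each standing for 1 captured transcript), while Cox7b2 and Cox8c had 0.

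Oxidative phosphorylation runs on the inner mitochondrial membrane. Complex I (NADH dehydrogenase) and complex II (succinate dehydrogenase) feed electrons to complex III (cytochrome bc1), complex IV (cytochrome c oxidase) hands them to oxygen, and complex V (ATP synthase) uses the proton gradient to make ATP. Most subunits are made from nuclear genes and imported, while a core set is encoded by mitochondrial DNA (the mt- genes). Several complex IV subunits exist as isoforms, with a broadly expressed form and another found in heart and skeletal muscle or in other restricted tissues.

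Mice carrying slie on both alleles, a deletion that arose in Ddr2 (a receptor for collagen), were set beside littermate controls. Mice of both genotypes received a burn of 30% of the body surface and a tenotomy of the left Achilles tendon. Injured samples were the left tissue around the cut tendon, and uninjured samples came from the right limbs of those same burned and operated mice. Tissue of the 2 mice of a genotype was pooled and digested to a cell suspension, so each of the 4 groups is 1 library. No difference between groups could therefore be tested, and every 95% interval below covers counting error only, not the spread between mice. Values for all libraries are given in a fixed order: injured then uninjured limb of controls, injured then uninjured limb of slie/slie mice.

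After keeping barcodes with at least 200 genes and at most 20% of UMIs from mt- genes, 751, 60, 246 and 184 cells remained, with 242888 to 4032783 UMIs per library and median cell depths of 1641, 1337, 1218 and 4841 UMIs. The control uninjured library stands apart: 991 of its 1075 barcodes had under 200 genes. A doublet caller marked 43 of its 60 kept cells (too many to be credible in so few cells). Its 3 kept cells under 0.5% mt- UMIs had 81.9% hemoglobin UMIs as a sum. Of these 3, 2 were among its 16 endothelial-like cells, which together had 0.0401% hemoglobin, so the sum does not describe each cell. Each comparison with that library rests on those 60 cells. Hemoglobin made up 6.09, 10.1, 5.06 and 1.15% of UMIs of kept cells. Ddr2 had 115, 3, 0 and 2 UMIs, and whether the deleted part holds the counted 3′ end was not stated in the sources used here. One barcode sequence occurred in more than 1 library.

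Promoter sequence was available for 74 of the 88 members in the RefSeq table (GRCm38.p6), and the 250 bases before the start were read in 80 member windows and in all 32851 windows. The motif of NRF1, a nuclear activator of respiratory genes (GCGCA, any base, then GCGC), was present in 17.5% against 3.74% of all windows. The ETS motif CCGGAAG, the core bound by GABP, was present in 17.5% against 6.91%, the YY1 motif AAGATGGC in 2.5% against 1.56%, the E-box CANNTG in 62.5% against 66.2% and TATAAA in 8.75% against 12.4%, all counted on both strands. Median GC content was 56.6% against 52.4%. Of the restricted isoforms, 4 had a window (Cox6b2, Cox7a1, Cox7b2 and Cox8b), and 0 of the 4 held the NRF1 or ETS letters. A match is a match of letters only. The bases are shown for 2 broadly expressed complex IV genes and for 2 muscle isoforms that return below, with NRF1, ETS and E-box matches in capitals.
Cox6a1 (chr5:115348959-115349208, minus strand, overlapping an exon of Gm42903): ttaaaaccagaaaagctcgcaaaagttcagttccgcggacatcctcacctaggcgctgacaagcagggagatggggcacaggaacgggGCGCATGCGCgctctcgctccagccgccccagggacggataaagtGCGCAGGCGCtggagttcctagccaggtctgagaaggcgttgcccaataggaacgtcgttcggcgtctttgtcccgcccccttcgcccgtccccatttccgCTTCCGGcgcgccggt
Cox6b1 (chr7:30626115-30626364, minus strand): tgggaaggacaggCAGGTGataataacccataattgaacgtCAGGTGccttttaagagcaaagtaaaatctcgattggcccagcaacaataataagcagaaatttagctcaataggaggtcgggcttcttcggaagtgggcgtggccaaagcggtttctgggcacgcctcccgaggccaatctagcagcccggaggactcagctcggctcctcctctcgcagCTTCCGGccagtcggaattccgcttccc
Cox7a1 (chr7:30183921-30184170, plus strand): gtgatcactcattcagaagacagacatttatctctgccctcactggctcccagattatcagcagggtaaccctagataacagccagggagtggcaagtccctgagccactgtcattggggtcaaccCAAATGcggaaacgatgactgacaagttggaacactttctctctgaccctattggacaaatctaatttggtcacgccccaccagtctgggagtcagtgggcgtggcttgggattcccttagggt
Cox8b (chr7:140900447-140900696, minus strand): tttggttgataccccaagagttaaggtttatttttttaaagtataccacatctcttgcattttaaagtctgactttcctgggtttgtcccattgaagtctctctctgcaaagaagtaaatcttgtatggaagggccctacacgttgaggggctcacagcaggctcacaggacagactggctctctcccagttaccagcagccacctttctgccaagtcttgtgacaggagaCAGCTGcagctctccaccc
Cox6a1 holds the NRF1 letters at 162 and 117 bases before the start and the ETS letters, on the opposite strand, at 16. Cox6b1 holds the ETS letters, also on the opposite strand, at 28 bases before the start and E-boxes at 237 and 209. Each muscle isoform holds 1 E-box, at 124 bases for Cox7a1 and at 19 for Cox8b. Distances are counted from the RefSeq start, and the Cox7a1 window runs past the gene start given below.

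Members made up 145757 of the 6383501 UMIs of kept cells, and the 10 most counted of them held 30.5% of the member UMIs. Levels are given as CPM, UMIs scaled to 1000000 UMIs of the kept cells of a library; counting starts from the 3′ end, so no division by gene length was made. Small complex IV subunits led: Cox7c was at 989.6, 860.5, 942 and 995 CPM. Cox6c was at 915, 832, 979 and 979.9 CPM, Cox8a at 866, 803, 936 and 1131 and the regulatory subunit Cox4i1 at 799, 745, 823 and 817. For each of these 4 genes the control uninjured library was the lowest. CPM keeps hemoglobin in the denominator, which was 10.1% of UMIs there and 1.15% in the slie/slie uninjured library, so small gaps such as that of Cox4i1 depend on it. In complex V, Atp5e (the epsilon subunit) was at 577, 556, 636 and 767 CPM and the coupling subunit Atp5j at 519.7, 605, 510.5 and 708, both highest in the slie/slie uninjured library. In complex III, Uqcrb was at 436, 416, 420.4 and 495 CPM and Uqcrq at 475, 301, 478 and 358, the latter with both injured libraries above both uninjured ones.

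Complex I subunits ranged from 257 UMIs over all kept cells for the iron-sulfur subunit Ndufs1 to 2218 for the accessory subunit Ndufa2. Ndufa2 was at 336, 305, 293 and 449 CPM and Ndufa13 at 311, 329, 302 and 492, in both cases highest in the slie/slie uninjured library. The subunits of succinate dehydrogenase, which also works in the citric acid cycle, were counted less. Sdhb (iron-sulfur subunit) was at 172, 148, 146 and 179 CPM and the catalytic Sdha at 60.3, 57.6, 50.5 and 60.2. The membrane anchors Sdhd and Sdhc were at 94, 57.6, 82.1 and 82 CPM and at 64.7, 78.2, 64.3 and 62 CPM. Complex I held 29.7%, 32.2%, 29.1% and 32.7% of member UMIs, with both uninjured libraries above both injured ones, and complex V held 26.9%, 25.6%, 27.7% and 26%, with the order turned round.

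Set against all UMIs that are not mitochondrial, members took 2.27% (2.26 to 2.29), 2.1% (2.04 to 2.16), 2.32% (2.29 to 2.35) and 2.61% (2.58 to 2.64). The mt- genes took 1.75, 2.49, 1.46 and 3.69% of all UMIs, a wider spread, so that 1.28, 0.821, 1.57 and 0.681 member UMIs stood beside each mt- UMI. In the median cell members took 1.75, 1.96, 1.87 and 2.52%, and the lower quartile of slie/slie uninjured cells (1.97%) lay above the median of each other library. Among the 13 mt- genes, mt-Cytb made up 14% to 16.5% of mt- UMIs, mt-Nd1 9.37% to 13.2% and mt-Nd6 0.19% to 0.346%.

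**Figure D1:**
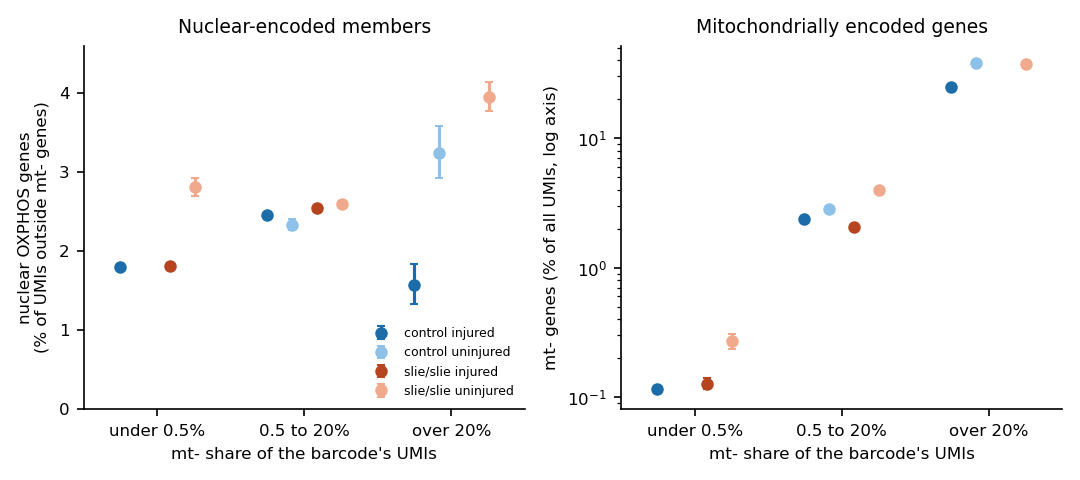
Share of UMIs from the 88 nuclear members (left, percent of UMIs outside mt- genes) and from mt- genes (right, percent of all UMIs, log axis) in barcodes with at least 200 genes, split by mt- share, for each library with 10 or more barcodes in the range; bars are exact 95% counting intervals. The member share stays between 1.57% and 3.95%; the mt- share, by which the ranges were set, runs from 0.115% to 38.1%.

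In control mice the injured limb had slightly more member RNA than the uninjured limb. The sums were 22351 and 20462 CPM, a ratio of 1.09 (1.06 to 1.12). Singly, 13 of 84 measured members were at least 1.5-fold higher, against 26% of 10959 genes, and 6 at least 1.5-fold lower, against 31.4%. Both counts are smaller shares of the members than the background. The median log2 ratio of the members was 0.088 and that of all genes −0.10. On simulated counts, unchanged genes had a median of −0.16 in this comparison, so the value over all genes is not read as a fall. The summed ratio was 1.01 (0.957 to 1.06) for complex I, 1.13 (0.908 to 1.43) for II, 1.13 (1.03 to 1.23) for III, 1.13 (1.07 to 1.19) for IV and 1.15 (1.08 to 1.21) for V. The 13 mt- genes went the other way, at 0.701 (0.683 to 0.72). Without the 3 deepest cells of each library the summed log2 ratio of the members was −0.055 in place of 0.13, and without called doublets, which leaves 17 uninjured cells, 0.0018.

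Single members differed more. Ndufa10, a complex I accessory subunit, had 454 and 10 UMIs in the injured and uninjured control libraries, a ratio of 2.49 (1.38 to 5.03). Next came Cox5a, a nuclear subunit of complex IV, with 1.65 (1.26 to 2.21), Uqcrq with 1.56 (1.24 to 2.0), Atp5o (in the stalk of ATP synthase) with 1.67 (1.22 to 2.36) and Cox6b1 with 1.48 (1.19 to 1.86). Lowest were the complex I accessory subunits Ndufa7, with 0.622 (0.508 to 0.768), and Ndufa6, with 0.616 (0.495 to 0.773). Uqcr11 had 0.754 (0.621 to 0.923), Sdhaf4 0.503 (0.288 to 0.949) and Cox7a2 0.827 (0.69 to 0.999). Of the 6 members past 1.5-fold below, 4 encode no subunit (Sdhaf3, Sdhaf4, Atp5s and Atp5sl). These are thinly counted: the 6 genes that encode no subunit had 35 UMIs together in the control uninjured library. Fewer members were below with a minimum of 50 UMIs.

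In slie/slie mice the same contrast had the opposite sign. The sums were 22828 CPM in the injured and 25137 in the uninjured limb, a ratio of 0.908 (0.892 to 0.924). Here 2 of 85 measured members were at least 1.5-fold higher, against 20% of 9221 genes, and 10 at least 1.5-fold lower, against 22.8%, with a median log2 ratio of −0.18 against −0.019 over all genes. Complex I was lowest, at 0.809 (0.784 to 0.835), and 17 of its 36 members had an interval wholly below 1, against 18.8% of all measured genes, and 1 wholly above, against 17.7%. Intervals narrow with counts, and measured genes needed only 20 UMIs, so these shares are not set side by side at like depth. Complex II was at 0.897 (0.776 to 1.04), III at 0.977 (0.924 to 1.03), IV at 0.95 (0.92 to 0.98) and V at 0.967 (0.935 to 1.0), while the mt- genes were at 0.395 (0.388 to 0.403). Without barcodes under 0.5% mt- UMIs, which are 61.8% of the kept injured and 12% of the kept uninjured cells, the summed log2 ratio was 0.0026 in place of −0.14.

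**Figure D2:**
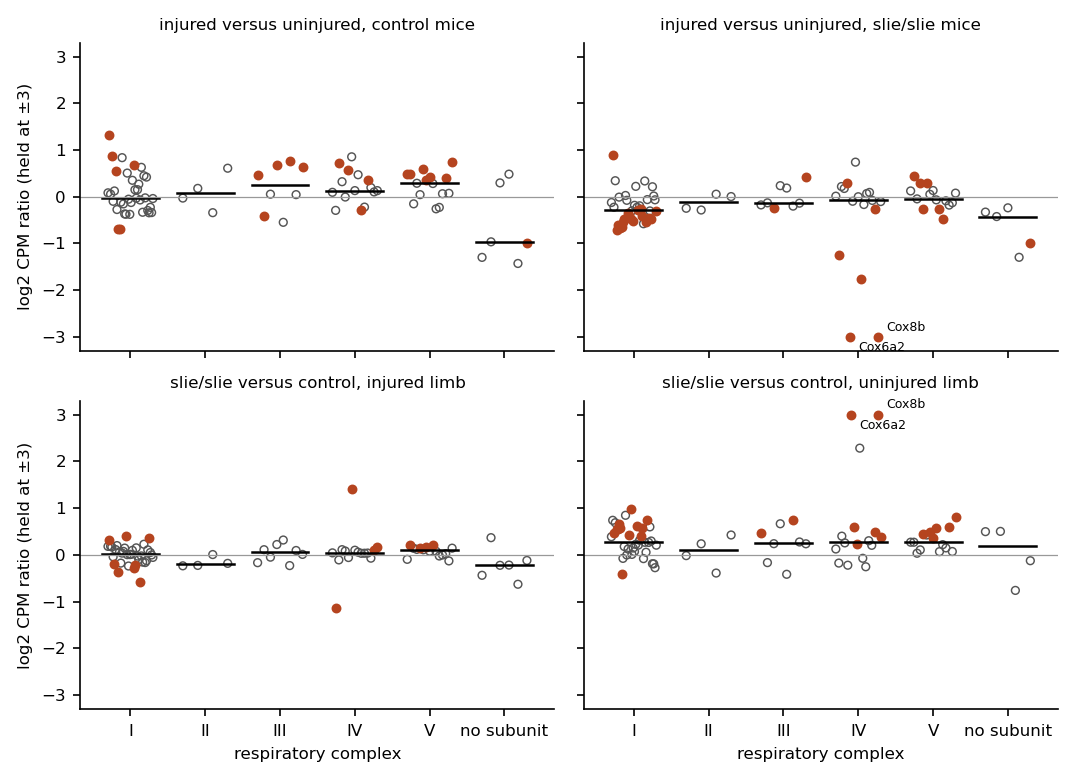
Log2 ratio of each measured member between libraries in the 4 comparisons, grouped by respiratory complex; filled points have a 95% counting interval without 1, bars are medians, and values beyond 3 in size are drawn at 3 and named. Most members lie within 1 log2 unit of 0, and Cox6a2 and Cox8b lie beyond 3 where the slie/slie uninjured library is compared.

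Some members had the same sign of injury ratio in both genotypes, whose libraries are separate. Ndufa10 was at 113, 41.2, 139 and 74.7 CPM, both injured libraries above both uninjured ones, and its slie/slie ratio was 1.86 (1.41 to 2.46). Ndufa6 was at 228, 366, 177 and 278 CPM, both injured libraries below both uninjured ones, with a slie/slie ratio of 0.638 (0.528 to 0.77). Uqcrq had 1.33 (1.16 to 1.53) in slie/slie mice. Apart from the muscle isoforms, the slie/slie lowest were Ndufa13 with 0.614 (0.532 to 0.708) and Ndufa5 with 0.632 (0.536 to 0.745), whose control ratios were 0.934 (0.746 to 1.18) and 0.827 (0.634 to 1.1). The catalytic beta subunit Atp5b had 1.35 (1.16 to 1.57), Atp5d 1.23 (1.07 to 1.41) and Cox6a1 1.23 (1.07 to 1.42); the 2 members past 1.5-fold above were Ndufa10 and Cox6b2. Of the 83 members measured in both contrasts 0 had intervals wholly on opposite sides of 1 in the 2 genotypes, against 1.37% of 9020 genes.

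Other metabolic genes give a scale for these values. Glycolytic genes (enzymes with the transporters Slc2a1 and Slc16a3) as a sum were at 2.1 (1.94 to 2.28) in control and 2.06 (1.97 to 2.16) in slie/slie mice (injured over uninjured). Singly, 9 and 11 of 16 were past 1.5-fold above, against 26% and 20% of all measured genes. Past it below were 1 and 1, against 31.4% and 22.8%. Gapdh was at 1841 against 898 CPM in controls and at 1850.0 against 819 in slie/slie mice. Citric acid cycle enzymes were at 1.08 (0.944 to 1.23) in control and 1.13 (1.04 to 1.23) in slie/slie mice. A mixed list of other mitochondrial genes was at 1.34 (1.24 to 1.44) in control and 1.15 (1.1 to 1.2) in slie/slie mice. It held carriers, channels, Chchd2 and Cycs among others, and also Cyc1, a complex III subunit outside the symbol rule. Assembly factors of the complexes were at 1.11 (1.0 to 1.24) in control and 0.999 (0.937 to 1.06) in slie/slie mice, and mitochondrial ribosomal proteins at 1.19 (1.12 to 1.27) in control and 1.04 (1.0 to 1.08) in slie/slie mice. The regulators of mitochondrial DNA expression were at 1.06 (0.838 to 1.35) in control and 1.01 (0.859 to 1.18) in slie/slie mice. The summed members lay nearer 1 than the glycolytic genes in both genotypes. The nuclear RNAs Malat1 and Neat1 together were at 0.524 (0.514 to 0.534) in control and 0.537 (0.529 to 0.546) in slie/slie mice, and their part in these ratios was not tested.

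Between genotypes in the injured limb the members were close to equal. The summed ratio of slie/slie to control was 1.02 (1.01 to 1.04), with a median member log2 ratio of 0.035 and 0.037 over all genes. Singly, 1 of 84 measured members was at least 1.5-fold higher, against 13.8% of 11313 genes, and 3 at least 1.5-fold lower, against 13%. The sum had the other sign among cells with at least 500 genes (−0.0059 on the log2 scale, main value 0.030), after thinning each cell to 500 UMIs (−0.0045) and without the 3 deepest cells (−0.058). The mt- genes were at 0.834 (0.819 to 0.849) and cytosolic ribosomal proteins at 1.1 (1.09 to 1.1).

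The member past 1.5-fold above was Cox6b2, the testis partner of Cox6b1, with 19 and 29 UMIs, a ratio of 2.66 (1.43 to 4.84). Those below were Cox4i2 with 13 and 121 UMIs and 0.458 (0.243 to 0.798), Ndufs1 with 0.665 (0.433 to 0.989) and Sdhaf3 with 0.647 (0.223 to 1.55). Other low members were Ndufa6 with 0.781 (0.662 to 0.917), Ndufb7 with 0.826 (0.705 to 0.963) and Ndufb8 with 0.856 (0.74 to 0.987). Other high ones were Ndufb11 with 1.32 (1.15 to 1.51), Ndufs8 with 1.29 (1.03 to 1.6), Atp5g3, which encodes the c subunit, with 1.17 (1.03 to 1.32) and Atp5b with 1.16 (1.04 to 1.3).

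In the uninjured limbs the slie/slie library had the higher level. The summed ratio was 1.23 (1.19 to 1.27), with 1.25 (1.18 to 1.32) for complex I, 1.11 (0.876 to 1.42) for II, 1.17 (1.06 to 1.29) for III, 1.22 (1.15 to 1.29) for IV and 1.25 (1.17 to 1.32) for V. Singly, 17 of 83 measured members were at least 1.5-fold higher, against 20.1% of 7490 genes, and 1 at least 1.5-fold lower, against 20.8%, with a median log2 ratio of 0.27 against −0.023. The count of higher members is a share near the background. Ndufb2 had 250 and 27 UMIs, a ratio of 1.98 (1.34 to 3.05), Atp5o 1.75 (1.26 to 2.5) and Cox6b1 1.52 (1.21 to 1.93). Ndufa6 was lower, at 0.753 (0.593 to 0.963), and the member past 1.5-fold below was Sdhaf3. The mt- genes were at 1.48 (1.44 to 1.52) and assembly factors at 1.23 (1.1 to 1.37). The summed log2 ratio was 0.30; it was 0.13 without the 3 deepest cells, 0.58 with cells weighted equally and 0.17, with 9 members past 1.5-fold above, when mt- and hemoglobin UMIs were left out of the denominator. The comparisons by genotype and by injury share libraries, so they are not support for each other.

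Muscle isoforms of complex IV set the slie/slie uninjured library apart. Cox6a2 (chr7:128205435-128206387), the heart and skeletal muscle partner of Cox6a1, had 10, 0, 0 and 115 UMIs in kept cells. Cox8b (chr7:140898945-140900446), the muscle partner of Cox8a, had 3, 0, 0 and 85 UMIs, and Cox7a1 (chr7:30184144-30186078), the muscle partner of Cox7a2, had 22, 0, 5 and 21. Against a floor of 3 UMIs in the slie/slie injured library, Cox6a2 was at least 35.3-fold and Cox8b at least 26.1-fold higher in the uninjured one. Against the same floor in the control uninjured library they were at least 8.49-fold and 6.27-fold higher. The bounds against the control library hold for kept cells only. Over all barcodes, the control and slie/slie uninjured libraries had 16 and 169 UMIs of Cox6a2 and 13 and 120 of Cox8b. These were out of 579790 and 1540053 UMIs. The broadly expressed partners were counted in all libraries: Cox6a1 was at 393, 391, 416 and 338 CPM and Cox7a2 at 429, 515, 438 and 492.

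Cells with these transcripts also held other myofibre RNA. In the slie/slie uninjured library 40 of 184 kept cells had a Cox6a2 UMI and 36 a Cox8b UMI. The highest cell for each held 29.6% of the Cox6a2 and 18.8% of the Cox8b UMIs of those cells. Myofibre markers such as Acta1 and Ckm stood at 3307 CPM in cells with Cox6a2 and 315 in cells without, at median depths of 5772 and 4248 UMIs. Cox6a2 was found in 20 of 67 cells of mesenchymal-like cluster 8, 9 of 49 endothelial-like cells, 1 of 16 Schwann or glial-like cells and 3 of 20 pericyte or smooth muscle-like cells, at median depths of 6864, 4071, 3585 and 5319 UMIs. RNA of fibres and RNA of these cells cannot be told apart here. The 22 Cox7a1 UMIs of the control injured library lay in 13 deep cells (median 20099 UMIs), the highest of which held 40.9% of them. In these 13 cells myofibre markers were at 3.02 CPM. In the control uninjured library Cox6a2 had 16, Cox8b 13 and Cox7a1 2 UMIs, all in barcodes outside the kept cells.

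Barcodes above the 20% limit held more of these isoforms. In the slie/slie uninjured library 64 barcodes with over 20% mt- UMIs had 1107 CPM (of UMIs outside mt- genes) of Cox6a2, 664 of Cox8b and 288 of Cox7a1, beside 108, 80.0 and 17.4 at 0.5 to 20%. The 24 control uninjured barcodes above the limit had 338, 169 and 0 CPM, from 4, 2 and 0 UMIs. When cells were clustered without a mitochondrial limit, 81 barcodes formed a myofibre-like cluster led by Tnnt3, Tnnc2, Acta1 and Ckm, with 23 from the control and 58 from the slie/slie uninjured library, 22 and 53 of them above the limit. In it members took 3.3% (2.97 to 3.65) of UMIs outside mt- genes in control and 5.62% (5.36 to 5.89) in slie/slie barcodes, with myofibre markers at 0.21% and 3.21%. Its slie/slie barcodes had 85 UMIs of Cox6a2 and 5 of Cox6a1, whereas its control barcodes had 4 of each. Neither Cox6a2 nor Cox8b was found in 18 of its 23 control and 27 of its 58 slie/slie barcodes. Acta1, Ckm and Tnnt3 had 4, 4 and 2 UMIs in the control barcodes and 201, 126 and 185 in the slie/slie ones. The name therefore rests mainly on the slie/slie barcodes, and the 2 member shares are not a comparison of like fibres.

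**Figure D3:**
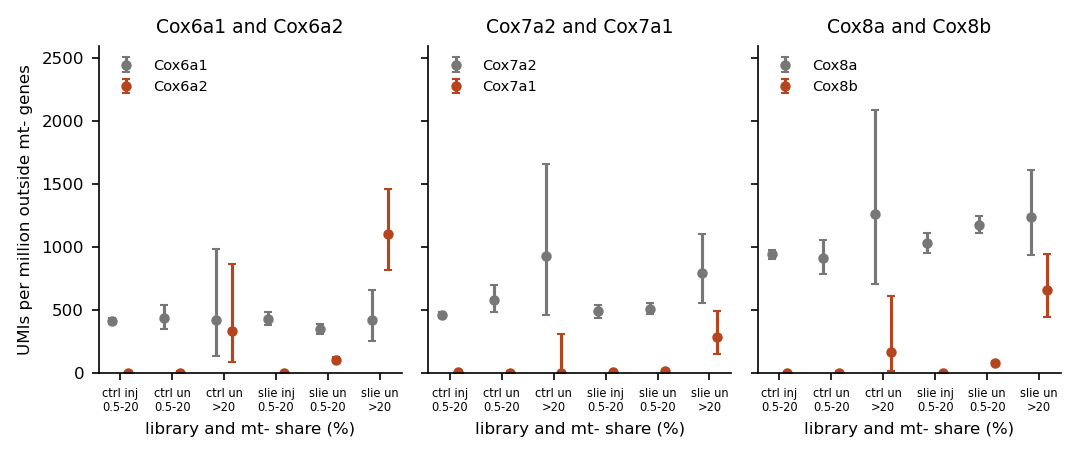
Level of 3 broadly expressed complex IV subunits (grey) and their muscle isoforms (red) in UMIs per 1000000 outside mt- genes, by library (ctrl, control; slie, slie/slie; inj, injured; un, uninjured) and by mt- share of the barcodes, with exact 95% Poisson intervals. Cox6a2 reaches 1107 in the slie/slie uninjured barcodes above 20% mt- UMIs and 108 in those at 0.5 to 20%.

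Cox4i2 (chr2:152754173-152765037), the isoform of Cox4i1 associated with low oxygen, was counted mainly in pericyte or smooth muscle-like cells, which held 106 of its 121 UMIs in the control injured library. It was detected in 26 of 56, 4 of 13, 5 of 19 and 10 of 20 of them. Elsewhere it was found in 0 of 111 control macrophage-like cells, which allows up to 2.7%, and in 0 of 67 cells of cluster 8, which allows up to 4.48% at a median of 6864 UMIs, a depth above the 1507 to 5319 of the pericyte or smooth muscle-like cells. Both limits bound detection of a UMI at these depths, not expression. Among slie/slie uninjured endothelial-like cells 4 of 49 had it. In the pericyte or smooth muscle-like cells Cox4i2 stood at 274, 124, 91.5 and 199 CPM beside 886, 1011, 915 and 1144 of Cox4i1, so the broad isoform was the more counted one in each library.

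Cell types spanned a wider range than libraries. Classes were named from markers, with members and mt- genes kept out of the genes used for clustering, and mesenchymal-like clusters were compared by number. Neutrophil-like cells were low, at 0.737% (0.702 to 0.773) of UMIs outside mt- genes in 152 control injured and 0.528% (0.479 to 0.582) in 44 slie/slie injured cells. Mesenchymal-like cluster 11, led by nuclear RNAs such as Meg3 and Neat1, was at 1.31% (1.17 to 1.47). Erythroid-like cells of the control injured library were at 0.271%, but hemoglobin made up 84.8% of their UMIs, and with hemoglobin also left out of the denominator they were at 1.81%, above the neutrophil-like cells and cluster 11. Dendritic-like cells were at 2.14% and 2.21% in the injured limbs. Endothelial-like cells were at 2.36% in control injured, 2.11% in control uninjured and 2.78% in slie/slie uninjured tissue. The cycling mesenchymal-like cluster 6 was at 2.46% and 2.6%, and cluster 0 (led by H19) at 3.13% and 2.49%. Cluster 3 (led by Col11a1 and Sfrp1) was at 1.72% in 103 control and 1.95% in 17 slie/slie cells, and at 1.62% and 1.39% without the 3 deepest cells of each, which turns the order.

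As a sum over the class, members were high in keratinocyte-like cells, at 3.65% in control and 3.72% in slie/slie injured tissue. They were also high in pericyte or smooth muscle-like cells of the slie/slie uninjured limb, at 3.57%. Of the keratinocyte-like cells, 6 control cells of cluster 16, led by lipid genes such as Scd1 and Elovl6, were at 6.36% (6.2 to 6.53) and 32 cells of cluster 10 at 2.49% (2.42 to 2.56). In the slie/slie library 4 and 21 cells were at 4.56% (4.4 to 4.73) and 3.04% (2.91 to 3.16), so the lipid cluster was higher in both, on 10 cells in all. Of the 61316 UMIs of the 4 slie/slie cells, 54860 lay in 1 cell. Over the 18 pairs of class and library with at least 20 cells, the member share had a Pearson correlation of 0.786 and a Spearman correlation of 0.62 with the cytosolic ribosomal protein share, and of 0.415 and 0.385 with the mt- share. Without the erythroid-like point these were 0.724 and 0.551, and 0.315 and 0.277. The points share libraries and depth, so these values are descriptions.

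**Figure D4:**
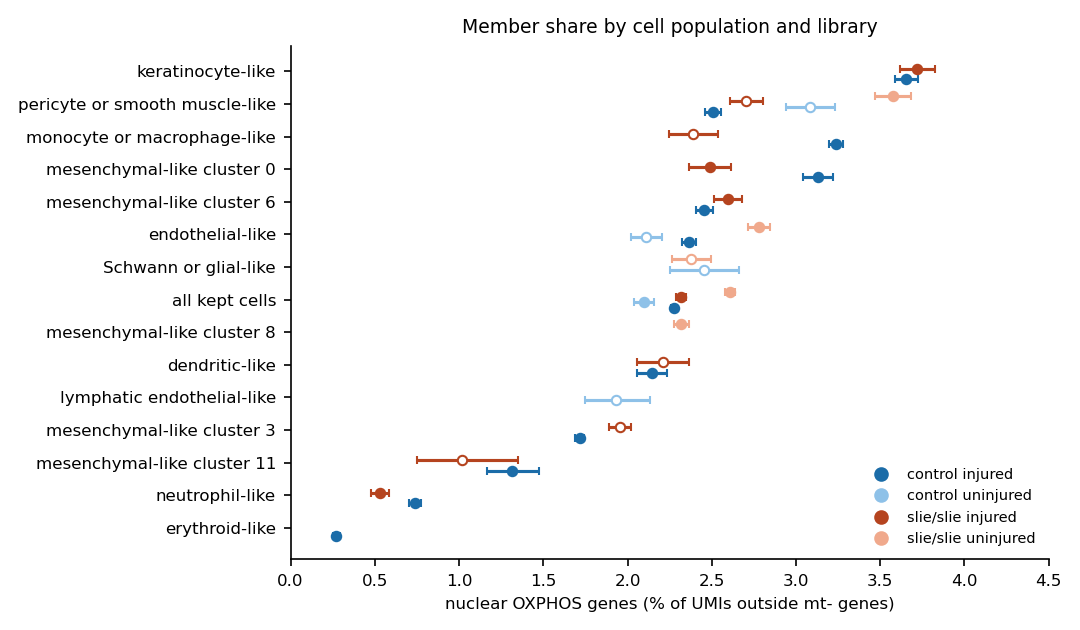
Share of UMIs outside mt- genes that came from the 88 members in each cell population and library, with exact 95% counting intervals; open circles are groups of 10 to 19 cells. Neutrophil-like cells lie at 0.528% and 0.737% and keratinocyte-like cells (clusters 10 and 16 together) reach 3.72%. The erythroid-like point, at 0.271%, has hemoglobin in its denominator.

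A few deep cells carried the level of the macrophage-like class. Its 111 control injured cells were at 3.24% (3.2 to 3.28) as a sum, while the median cell was at 2.02% and the sum without the 3 deepest cells was 2.35%. The deepest cell had 60152 UMIs with 8.8% member UMIs, and the next had 47585 UMIs with 7.86%. Both were singled out after their values were seen. They held 1150 and 460 UMIs of the protease gene Ctsk and 858 and 362 of Acp5, genes known for high expression in osteoclasts, and 0 of the macrophage gene C1qa. The deepest cell after them had 3.08% member UMIs, with 7 Ctsk and 10 Acp5 UMIs. With the class ranked by depth and divided evenly into 3, members took 2.01%, 1.88% and 3.59%, and Ctsk stood at 25.3, 8.03 and 3131 CPM. The deepest part contains those 2 cells, so its values are not separate from theirs.

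Within a cell class, only injured tissue held 20 or more cells of both genotypes. In mesenchymal-like cluster 0 the slie/slie to control ratio of the summed members was 0.796 (0.751 to 0.843), where 2 of 69 measured members were at least 1.5-fold higher, against 15.2% of 1606 genes, and 17 at least 1.5-fold lower, against 16.7%. The lowest included the complex III subunit Uqcr10 with 12 and 88 UMIs, a ratio of 0.358 (0.183 to 0.644), and the complex I subunit Ndufc1 with 14 and 79 UMIs, a ratio of 0.459 (0.246 to 0.804). The mt- genes were at 1.03 (0.941 to 1.13) there. In the cycling cluster 6 the ratio was 1.07 (1.02 to 1.11), where 7 of 75 measured members were at least 1.5-fold higher, against 14.6% of 3691 genes, and 2 at least 1.5-fold lower, against 20.8%, while mt- genes were at 0.588 (0.555 to 0.622). Without barcodes under 0.5% mt- UMIs the log2 ratio was −0.044 in place of −0.33 in cluster 0 and −0.042 in place of 0.091 in cluster 6. A coarser clustering gave 1 value for both, −0.11.

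Neutrophil-like cells had a ratio of 0.718 (0.643 to 0.801), where 1 of 35 measured members was at least 1.5-fold higher, against 14.9% of 1857 genes, and 10 at least 1.5-fold lower, against 26.1%. Cox8a, with 32 and 181 UMIs, had a ratio of 0.529 (0.354 to 0.77) and Cox4i1, with 14 and 84 UMIs, 0.515 (0.276 to 0.898). The class holds 2 clusters in unequal parts. In cluster 2 (105 control and 17 slie/slie cells) members were at 0.889% (0.84 to 0.94) and 0.654% (0.562 to 0.757). In cluster 7 (47 and 27 cells, led by Ccl4) they were at 0.502% (0.456 to 0.55) and 0.46% (0.403 to 0.524), and there the intervals overlapped. Keratinocyte-like cells were at 1.01 (0.977 to 1.05), where 4 of 75 measured members were at least 1.5-fold higher, against 29.4% of 2671 genes, and 1 at least 1.5-fold lower, against 12.2%. Without the 3 deepest cells of each library their summed log2 ratio was −0.25 in place of 0.016.

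With at least 10 cells in each library, pericyte or smooth muscle-like cells could be compared across limbs. Their injured to uninjured ratio was 0.823 (0.782 to 0.868) in control mice, where 6 of 76 measured members were at least 1.5-fold higher, against 33.2% of 3729 genes, and 23 at least 1.5-fold lower, against 23.6%. In slie/slie mice it was 0.767 (0.731 to 0.805), where 2 of 73 measured members were at least 1.5-fold higher, against 24.8% of 1974 genes, and 20 at least 1.5-fold lower, against 24.4%. Both values lie below 1, whereas all control cells together gave 1.09; the mt- genes were at 0.631 and 0.649. In control endothelial-like cells the ratio was 1.13 (1.08 to 1.18), where 12 of 77 measured members were at least 1.5-fold higher, against 26.1% of 4781 genes, and 4 at least 1.5-fold lower, against 23%. Between genotypes in the uninjured limb it was 1.29 (1.23 to 1.36) in endothelial-like cells, where 22 of 75 measured members were at least 1.5-fold higher, against 16.6% of 2844 genes, and 2 at least 1.5-fold lower, against 18.5%, and 1.15 (1.09 to 1.22) in pericyte or smooth muscle-like cells, where 13 of 71 measured members were at least 1.5-fold higher, against 18.1% of 1480 genes, and 4 at least 1.5-fold lower, against 14.6%. These groups hold 13 to 56 cells. The 3 deepest pericyte or smooth muscle-like cells held 30.6%, 65.2%, 67.9% and 31.8% of that class's UMIs in the 4 libraries. The class share was 2.51%, 3.08%, 2.7% and 3.57% with them and 2.47%, 2.76%, 1.83% and 3.19% without them, so the slie/slie injured share moved most.

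Cells nearly without mt- UMIs still held nuclear members. Under 0.5% of UMIs were mitochondrial in 379, 3, 152 and 22 kept cells, and 182, 1, 82 and 3 had 0 mt- UMIs. The ranges compared here were set by the mt- share, so only the nuclear members are compared between them. In the control injured library members took 1.8% (1.77 to 1.82) of UMIs outside mt- genes in these barcodes and 2.46% (2.44 to 2.48) in barcodes with 0.5 to 20%, a ratio of 0.732 (0.72 to 0.743). There 0 of 84 measured members were at least 1.5-fold higher, against 6.65% of 10748 genes, and 23 at least 1.5-fold lower, against 52.1%. In the slie/slie injured library the ratio was 0.709 (0.688 to 0.731), and 0 of 78 measured members were at least 1.5-fold higher, against 9.16% of 6331 genes, and 37 at least 1.5-fold lower, against 49.6%.

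The median cells differed less. Hemoglobin made up 22.1% of UMIs in the low range of the control injured library, and without it in the denominator the log2 ratio was −0.090 in place of −0.45. The median cell had 1.77% member UMIs in the low range and 1.75% in the other, and in the slie/slie library 1.83% and 1.91%. Within control cluster 0 low-range cells had a ratio of 1.25 (1.16 to 1.35), from 81 against 26 cells, where 19 of 64 measured members were at least 1.5-fold higher, against 23.1% of 1162 genes, and 3 at least 1.5-fold lower, against 19.8%. Control cluster 6 had 1.28 (1.21 to 1.35), from 35 against 33 cells, where 28 of 73 measured members were at least 1.5-fold higher, against 29.3% of 2905 genes, and 2 at least 1.5-fold lower, against 23.2%. Control neutrophil-like cells had 1.26 (1.05 to 1.52), from 129 against 23 cells, where 8 of 28 measured members were at least 1.5-fold higher, against 17.6% of 1483 genes, and 8 at least 1.5-fold lower, against 35.1%. In slie/slie cluster 0 the ratio was 1.01 (0.904 to 1.12), from 37 against 21 cells, where 6 of 32 measured members were at least 1.5-fold higher, against 14.9% of 436 genes, and 3 at least 1.5-fold lower, against 18.1%.

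Control macrophage-like cells had a ratio of 0.651 (0.623 to 0.679), from 26 against 85 cells, where 1 of 78 measured members was at least 1.5-fold higher, against 20.2% of 4832 genes, and 41 at least 1.5-fold lower, against 23.6%. The 2 deep cells rich in Ctsk lie in the higher range of that class, and with cells weighted equally the log2 ratio was −0.011 in place of −0.62.

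**Figure D5:**
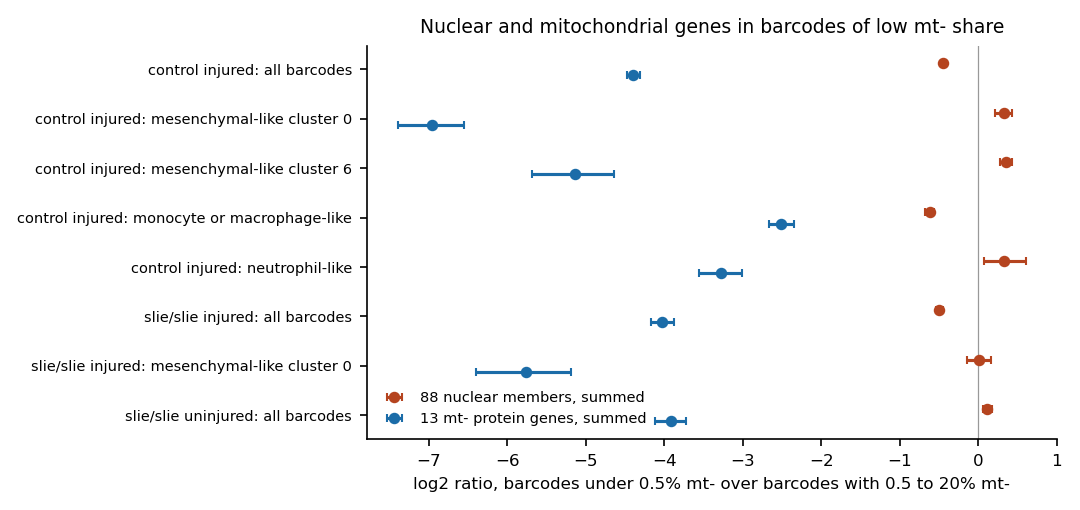
Log2 ratio between barcodes under 0.5% and barcodes with 0.5 to 20% mt- UMIs for the summed members (red) and the summed 13 mt- protein genes (blue), over UMIs outside mt- genes, with exact 95% counting intervals, for each library and class with at least 20 cells on each side. The members lie between −0.62 and 0.35; the place of the mt- genes, at −2.51 or below, is set by the ranges themselves.

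Above the 20% limit the members were higher outside mt- genes in uninjured tissue and lower in injured tissue. They took 3.24% (2.93 to 3.58) in 24 control uninjured and 3.95% (3.77 to 4.13) in 64 slie/slie uninjured barcodes, ratios of 1.39 (1.25 to 1.55) and 1.52 (1.45 to 1.6) to barcodes with 0.5 to 20%. In the control library 37 of 66 measured members were at least 1.5-fold higher, against 32.7% of 1940 genes, and 4 at least 1.5-fold lower, against 22.3%. In the slie/slie library 42 of 82 measured members were at least 1.5-fold higher, against 34.3% of 6580 genes, and 2 at least 1.5-fold lower, against 17.8%. Over all UMIs, mt- included, the log2 ratios were −0.17 and −0.0068, so the direction depends on the denominator. Myofibre markers made up 0.211% and 1.1% of UMIs outside mt- genes in these barcodes, beside 0.00627% and 0.117% at 0.5 to 20%, and their part in the result was not tested. The 22 low-range cells of the slie/slie uninjured library were at 2.81% beside 2.59%, where 9 of 82 measured members were at least 1.5-fold higher, against 28.2% of 6698 genes, and 5 at least 1.5-fold lower, against 26.9%. Above the limit in injured tissue, 15 control barcodes were at 1.57% (1.34 to 1.83) and 5 slie/slie barcodes at 1.95% (1.52 to 2.46). Injured barcodes with 0.5 to 20% were at 2.46% and 2.55%.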

How the data were processed

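Droplet libraries of 4 pooled samples were read as deposited: the authors' gene by barcode matrices of raw UMI counts, written by Cell Ranger (version 5.0.1, per the file headers) based on mm10 per the submitters' processing notes. The annotation behind the counts was not given in the sources used here. Barcodes under 200 genes or above 20% mt- UMIs were left out. UMIs were summed per library or class, and ratios are of CPM after 1 count was added to each sum, with exact conditional binomial intervals (95%); shares have Clopper-Pearson and single levels Poisson intervals. Genes needed 20 UMIs over both sides to be measured, and passed the threshold at 1.5-fold. Cells were clustered with scanpy 1.11.5 (2000 variable genes, 30 components, 15 neighbours, Leiden resolution 1) in Python 3.11.15 with scipy 1.17.1. Doublets were called but kept. On simulated counts, 31.5%, 12.2%, 12.3% and 22.4% of unchanged genes passed 1.5-fold in the 4 comparisons (injury in controls, injury in slie/slie, genotype injured, genotype uninjured), so background percentages include counting noise. The median log2 ratios of these unchanged genes were −0.16, 0.0026, 0.034 and −0.060, so background medians are not centred on the same value.

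Members and lists were chosen with earlier results of these data known. Named were the 2 most counted members of each complex, the Sdh genes, the isoform families, and per comparison the 5 highest and 5 lowest members ranked by the interval bound nearest 1. Outside that rule, named after their values were seen, are Ndufs1 as least counted of complex I, Ndufa6 in slie/slie injury, control ratios set beside slie/slie ones, the members listed where a count was small (Sdhaf3, Atp5s, Atp5sl, Cox6b2), and the cluster and osteoclast genes. Alternatives covered denominators, filters, weighting, thinning, doublets, deepest cells, clustering and thresholds.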

Additional observations from a re-analysis of the deposited data

Results flagged for a closer look

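Barcodes left out by the limits on genes and mt- UMIs still held member UMIs. Members took 0.0767% of UMIs outside mt- genes in the 91 left-out barcodes of the control injured library, 0.866% in the 1015 of the control uninjured, 0.0891% in the 129 of the slie/slie injured and 0.47% in the 105 of the slie/slie uninjured library. Hemoglobin made up 93.7%, 58.6%, 92.5% and 81.5% of the UMIs of these barcodes. The share in the kept cells was between 2.1% and 2.61%.

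The summed members had opposite injury ratios in the 2 genotypes, a log2 ratio of 0.13 in control and −0.14 in slie/slie mice. The difference was not tested, since each group is 1 library, and each sign depends on the processing.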

How the results depend on the processing

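No result rests on a test, since each group is 1 library, so the values below show only how far a choice of processing moves a value. Of the values under the alternatives, 220 stayed within the counting interval or within 1.5 times the count, 93 moved further and 16 changed sign where the interval of the first value left out 1. The control uninjured library has 60 kept cells and the slie/slie injured library the shallowest median cell, with 1218 UMIs. Beside each count stands the share of all measured genes past the same threshold under that alternative. No paired analysis was possible because each group is a single library with no replicate numbers. Leaving out erythroid-like cells and adding the count in proportion to depth were chosen after seeing the data. The cause of each shift was not tested. Low and high range stand for barcodes under 0.5% and over 20% mt- UMIs against those between. With mt- and hemoglobin UMIs left out of the denominator, the summed log2 ratio was, for injury in controls 0.051 (main 0.13), injury in slie/slie mice −0.11 (main −0.14), genotype in the uninjured limb 0.17 (main 0.30), low range, control injured −0.090 (main −0.45) and low range, slie/slie injured −0.24 (main −0.50). The count of members past the threshold above was, for genotype in the uninjured limb 9 (main 17; all genes 16.6%). With cells of at least 500 genes, the summed log2 ratio was, for injury in controls 0.065 (main 0.13), injury in slie/slie mice −0.063 (main −0.14), genotype in the injured limb −0.0059 (main 0.030), genotype in the uninjured limb 0.12 (main 0.30), low range, control injured −0.047 (main −0.45), low range, slie/slie injured −0.30 (main −0.50), low range, slie/slie uninjured 0.036 (main 0.12) and high range, slie/slie uninjured 0.41 (main 0.61). Members called higher numbered, for genotype in the uninjured limb 7 (main 17; all genes 16.1%). Members called lower numbered, for genotype in the uninjured limb 4 (main 1; all genes 26.8%). With barcodes under 0.5% mt- UMIs left out, the summed log2 ratio was, for injury in controls 0.083 (main 0.13), injury in slie/slie mice 0.0026 (main −0.14), genotype in the injured limb 0.055 (main 0.030), genotype in the uninjured limb 0.14 (main 0.30), genotype in injured mesenchymal-like cluster 0 −0.044 (main −0.33) and genotype in injured mesenchymal-like cluster 6 −0.042 (main 0.091). The higher members counted were, for injury in slie/slie mice 4 (main 2; all genes 24.3%), genotype in the injured limb 2 (main 1; all genes 15.9%) and genotype in the uninjured limb 5 (main 17; all genes 15.7%). Lower members counted were, for injury in slie/slie mice 6 (main 10; all genes 18.3%). With called doublets left out (43 of 60 control uninjured cells, not credible as doublets, so 17 remain), the summed log2 ratio was, for injury in controls 0.0018 (main 0.13) and genotype in the uninjured limb 0.16 (main 0.30). The count of members past the threshold above was, for injury in controls 6 (main 13; all genes 9.93%). The count below was, for injury in controls 18 (main 6; all genes 63.5%) and genotype in the uninjured limb 8 (main 1; all genes 46.3%). With cells weighted equally, the summed log2 ratio was, for injury in controls 0.042 (main 0.13), injury in slie/slie mice −0.49 (main −0.14), genotype in the uninjured limb 0.58 (main 0.30), genotype in injured keratinocyte-like cells 0.12 (main 0.016), low range, control injured 0.11 (main −0.45), low range, control injured mesenchymal-like cluster 0 0.47 (main 0.32), low range, control injured mesenchymal-like cluster 6 0.70 (main 0.35), low range, control injured monocyte or macrophage-like −0.011 (main −0.62), high range, control uninjured 0.83 (main 0.48), low range, slie/slie injured 0.0034 (main −0.50) and low range, slie/slie uninjured 0.33 (main 0.12). Members called higher numbered, for injury in slie/slie mice 1 (main 2; all genes 25%), genotype in the injured limb 4 (main 1; all genes 17.1%) and genotype in the uninjured limb 44 (main 17; all genes 32.6%). Members called lower numbered, for injury in slie/slie mice 38 (main 10; all genes 33.1%) and genotype in the injured limb 13 (main 3; all genes 29.1%). The share was, for complex I, control injured 30.0% (main 29.7%), complex IV, control injured 30.3% (main 30.7%), complex I, control uninjured 33.7% (main 32.2%), complex I, slie/slie injured 28.5% (main 29.1%) and complex V, slie/slie injured 29.4% (main 27.7%). With cells thinned to 500 UMIs, the summed log2 ratio was, for injury in controls 0.046 (main 0.13), injury in slie/slie mice −0.51 (main −0.14), genotype in the injured limb −0.0045 (main 0.030), genotype in the uninjured limb 0.55 (main 0.30), genotype in injured keratinocyte-like cells −0.19 (main 0.016), genotype in injured mesenchymal-like cluster 0 −0.22 (main −0.33), low range, control injured 0.14 (main −0.45), low range, control injured mesenchymal-like cluster 0 0.50 (main 0.32), low range, control injured mesenchymal-like cluster 6 0.86 (main 0.35), low range, control injured monocyte or macrophage-like 0.055 (main −0.62), high range, control uninjured 0.76 (main 0.48), low range, slie/slie injured −0.089 (main −0.50) and low range, slie/slie uninjured 0.23 (main 0.12). The higher members counted were, for injury in slie/slie mice 0 (main 2; all genes 27.1%) and genotype in the injured limb 7 (main 1; all genes 15.7%). Lower members counted were, for injury in controls 18 (main 6; all genes 33.8%), injury in slie/slie mice 25 (main 10; all genes 27.1%), genotype in the injured limb 6 (main 3; all genes 16.5%) and genotype in the uninjured limb 2 (main 1; all genes 19.3%). With the 3 deepest cells of each library left out, the summed log2 ratio was, for injury in controls −0.055 (main 0.13), injury in slie/slie mice −0.24 (main −0.14), genotype in the injured limb −0.058 (main 0.030), genotype in the uninjured limb 0.13 (main 0.30), genotype in injured keratinocyte-like cells −0.25 (main 0.016) and genotype in injured mesenchymal-like cluster 6 0.17 (main 0.091). The count of members past the threshold above was, for injury in controls 5 (main 13; all genes 18.9%), injury in slie/slie mice 1 (main 2; all genes 19.5%) and genotype in the uninjured limb 10 (main 17; all genes 13.9%). The count below was, for injury in controls 10 (main 6; all genes 40.9%) and injury in slie/slie mice 16 (main 10; all genes 24.2%). With a minimum of 50 UMIs, members called higher numbered, for injury in slie/slie mice 1 (main 2; all genes 17.7%) and genotype in the injured limb 0 (main 1; all genes 9.76%). Members called lower numbered, for injury in controls 3 (main 6; all genes 26%) and genotype in the uninjured limb 0 (main 1; all genes 13.8%). With a 2-fold threshold, the higher members counted were, for injury in controls 1 (main 13; all genes 16.2%), injury in slie/slie mice 0 (main 2; all genes 10.8%) and genotype in the uninjured limb 3 (main 17; all genes 10.2%). Lower members counted were, for injury in controls 2 (main 6; all genes 18.8%), injury in slie/slie mice 5 (main 10; all genes 12.5%), genotype in the injured limb 1 (main 3; all genes 5.73%) and genotype in the uninjured limb 0 (main 1; all genes 8.46%). With erythroid-like cells left out, the summed log2 ratio was, for injury in controls 0.068 (main 0.13), injury in slie/slie mice −0.067 (main −0.14) and genotype in the uninjured limb 0.15 (main 0.30). The count of members past the threshold above was, for genotype in the uninjured limb 9 (main 17; all genes 16%). With the added count in proportion to depth, members called lower numbered, for genotype in the uninjured limb 0 (main 1; all genes 16.3%). With clustering at resolution 0.5, the summed log2 ratio was, for genotype in injured mesenchymal-like cluster 0 −0.11 (main −0.33) and genotype in injured mesenchymal-like cluster 6 −0.11 (main 0.091). With a low range reaching to 1% mt- UMIs, the summed log2 ratio was, for low range, control injured 0.0089 (main −0.45), low range, control injured mesenchymal-like cluster 6 0.64 (main 0.35), low range, control injured monocyte or macrophage-like 0.080 (main −0.62), low range, slie/slie injured −0.28 (main −0.50) and low range, slie/slie uninjured −0.27 (main 0.12). With all UMIs as denominator, the summed log2 ratio was, for low range, control injured −0.42 (main −0.45), high range, control uninjured −0.17 (main 0.48) and high range, slie/slie uninjured −0.0068 (main 0.61). With clustering without the control uninjured library, the share was, for keratinocyte-like, slie/slie injured 3.61% (main 3.72%).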
